A study of Homo sapiens with 14 samples.

Results

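Positive transcription elongation factor b (P-TEFb), its inhibitors and its partners were followed at the RNA level in 2 human cancer cell lines exposed to hypoxia. The members were 8 genes, CDK9, CCNT1, CCNT2, HEXIM1, HEXIM2, LARP7, MEPCE and ZMYND8, taken by gene symbol from 23106 gene symbols with a read count in each library. They were proposed with earlier results of the hypoxia comparisons in view, so their differences between hypoxia and normoxia are given as a description, and their counts past the threshold of the fit across all genes are printed beside those of all genes with nothing read from them. The samples were 14 polyadenylated RNA-seq libraries from unmodified cells. PC3, an established line from a prostate carcinoma, gave 4 libraries in normoxia (21% O2) and 4 after 16 h in hypoxia (0.5% O2). HCT116, an established line from a colorectal carcinoma, gave 3 libraries in each condition. PC3 was grown in DMEM/Ham's F12 and HCT116 in McCoy's 5a medium, so that medium and line cannot be told apart, and each line stands for a single tumour.

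P-TEFb is a kinase made of CDK9 and a T-type cyclin. It phosphorylates the negative elongation factor NELF, the pausing factor DSIF and the C-terminal domain (CTD) of RNA polymerase II, which releases polymerase that has paused just downstream of promoters. Much of the cell's P-TEFb is held inactive in the 7SK ribonucleoprotein, where the small nuclear RNA 7SK, capped by MEPCE and held by LARP7, lets HEXIM1 or HEXIM2 block the kinase. ZMYND8 is a chromatin reader of histone marks that has been described as a partner of P-TEFb and as a coactivator of the hypoxia-inducible factor (HIF).

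The 8 genes lie at 7 places in the genome (GRCh37, the build of the count files, with GENCODE gene models). CDK9 is at chr9:130547958-130553071 (plus strand), CCNT1 at chr12:49082241-49110781 (minus strand) and CCNT2 at chr2:135675805-135716912 (plus strand). HEXIM1, at chr17:43225842-43229466, and HEXIM2, at chr17:43238067-43247407, are neighbours on the plus strand with 8600 bases between them. HEXIM1 is a single exon of 3625 bases. LARP7 is at chr4:113558233-113578852 (plus strand), MEPCE at chr7:100025945-100031749 (plus strand) and ZMYND8 at chr20:45837859-45985633 (minus strand). Exons of CDK9 share 91 of 3005 bases with the microRNA gene MIR3960 on the same strand, and exons of MEPCE share 203 of 3372 bases with ZCWPW1 on the opposite strand. How the counting treated strand is not given in the sources used here, so reads in those bases may have been lost or assigned to the partner.

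The sequences around the starts of HEXIM1, ZMYND8 and CCNT2 are shown because HEXIM1 had the largest difference of the 8 members in hypoxic HCT116, ZMYND8 the largest in hypoxic PC3, and CCNT2 a lower level in both lines. LARP7 was lower in both lines too, and its sequence is not shown. Each run is 300 bases of GRCh37, from 250 bases before the start of the Ensembl canonical transcript to 50 bases after it, read 5′ to 3′ on the gene's strand. Capitals mark the core of the HIF response element (ACGTG or GCGTG, on either strand) and the TATA motif TATAAA (on either strand). The TATA motif was added after the sequences had been read.
HEXIM1, chr17:43225592-43225891, plus strand: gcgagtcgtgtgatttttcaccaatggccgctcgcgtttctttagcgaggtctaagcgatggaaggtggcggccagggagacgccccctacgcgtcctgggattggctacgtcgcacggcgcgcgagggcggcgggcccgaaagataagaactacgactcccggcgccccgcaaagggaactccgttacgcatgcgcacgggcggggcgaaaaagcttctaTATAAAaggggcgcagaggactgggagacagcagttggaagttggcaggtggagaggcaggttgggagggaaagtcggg
ZMYND8, chr20:45985394-45985693, minus strand: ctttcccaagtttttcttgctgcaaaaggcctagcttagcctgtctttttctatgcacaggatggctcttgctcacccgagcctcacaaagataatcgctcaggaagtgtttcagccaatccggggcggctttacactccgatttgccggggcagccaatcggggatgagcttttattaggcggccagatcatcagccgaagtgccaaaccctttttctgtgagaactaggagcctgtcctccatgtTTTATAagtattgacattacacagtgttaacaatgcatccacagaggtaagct
CCNT2, chr2:135676142-135676441, plus strand: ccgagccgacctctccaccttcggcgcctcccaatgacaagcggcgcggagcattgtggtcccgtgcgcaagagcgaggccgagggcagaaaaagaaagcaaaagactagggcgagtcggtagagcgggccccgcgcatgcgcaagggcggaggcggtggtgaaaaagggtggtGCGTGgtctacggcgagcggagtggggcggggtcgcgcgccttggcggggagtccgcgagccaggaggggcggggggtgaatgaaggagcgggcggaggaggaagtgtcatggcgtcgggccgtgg
HEXIM1 held TATAAA with its first base at -29 from the start and no HIF core in this window. ZMYND8 held no HIF core and no TATAAA on its own strand, and had TATAAA on the other strand at -3. CCNT2 held 1 HIF core, at -76. Of the 8 promoters, 4 held the HIF core (CCNT1, CCNT2, LARP7 and MEPCE), against 10302 of 18422 promoters of the same length (55.9%). TATAAA was found in 2 of the 8 and in 9.7% of the 18422. A match is a description of letters in the window and not a binding site.

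Depth was high, at 71228454 to 150630928 counts per library, and lowest in replicate 4 of hypoxic PC3. In PC3 depth went with oxygen, at 71228454 to 96159803 counts in hypoxia and 98021966 to 123935458 in normoxia. The TMM scaling factors were apart there too, at 0.9425 to 1.008 in hypoxia and 1.052 to 1.062 in normoxia. A count of 3, the limit that a count of 0 allows, corresponded to 0.0201 to 0.0447 CPM (counts per 1000000 counts of the library after scaling), for counting error only. All 8 members were far above it and all passed the filter on low counts in every comparison. The epithelial markers EPCAM, CDH1, KRT8 and KRT18 were above 1 CPM in every library. The prostate markers HOXB13 and TMPRSS2 passed 1 CPM in every PC3 library, while KLK3 was at 0 and FOLH1 at 0 to 0.01939 CPM, and HOXB13 passed in HCT116 as well. Of 6 colon markers CDX2 passed 1 CPM in every HCT116 library (16.16 to 20.9 CPM), KRT20 lay at 0.8427 to 1.439 CPM and CDX1 was at 0, so neither line carried the full set of its tissue. The fibroblast gene COL1A1 was at 5.973 to 12.42 CPM across both lines. As a check of the hypoxia labels, 9 of 9 HIF targets were higher in hypoxia in each line and passed the edgeR quasi-likelihood test.

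**Figure D1:**
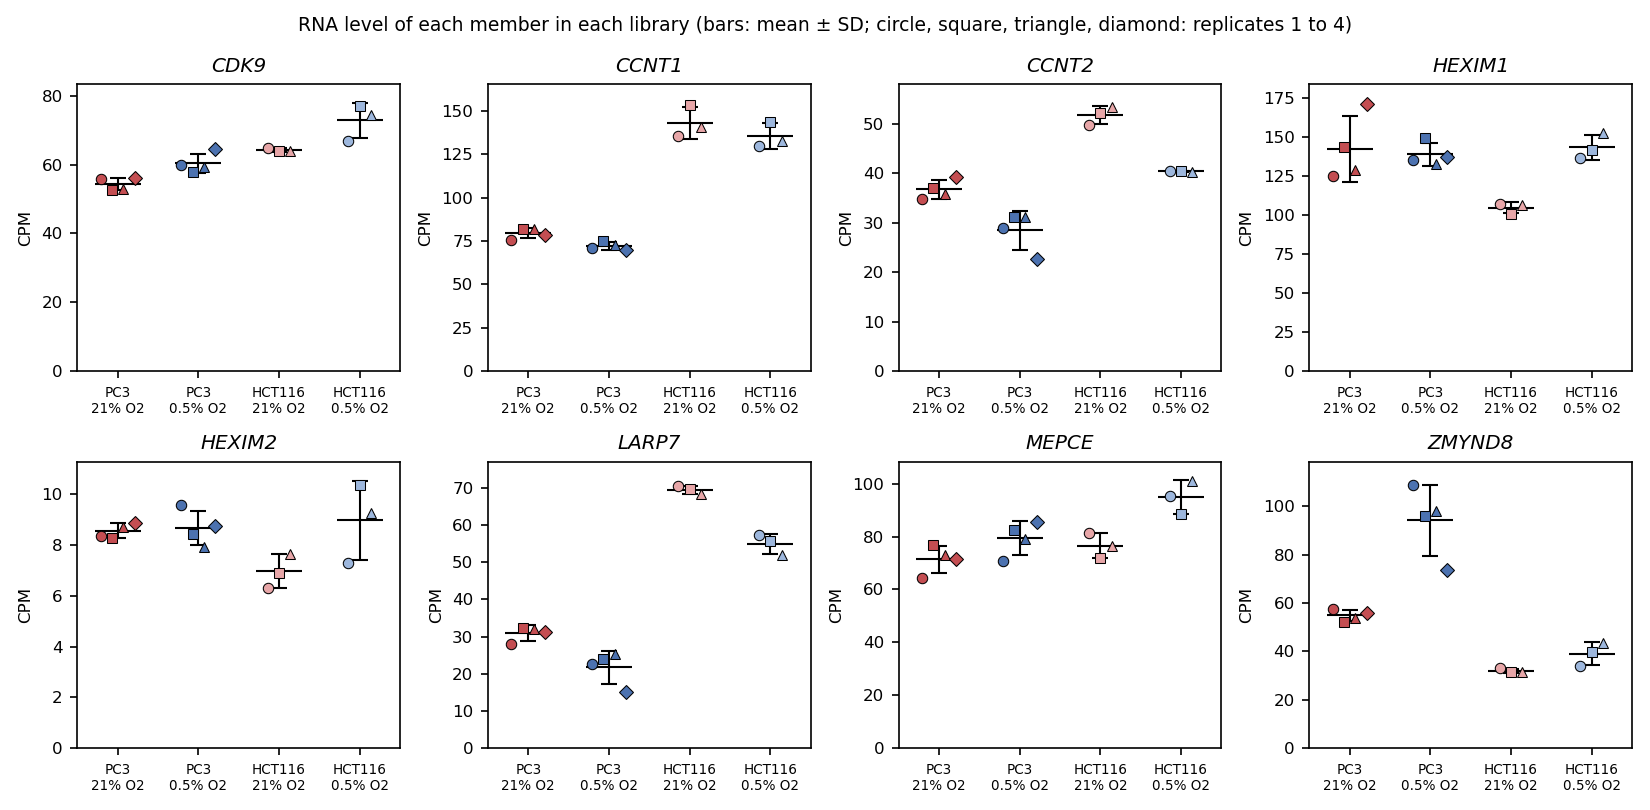
RNA level (CPM) of each member in each of the 14 libraries, 1 panel per gene, with the mean and SD of each group as bars and the marker shape giving the replicate number. ZMYND8 stands apart between oxygen levels in PC3, at 52.14 to 57.62 against 73.81 to 108.7 CPM, and HEXIM1 in HCT116, at 100.8 to 107.1 against 136.5 to 152.3 CPM.

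The first question was how RNA for the kinase and its cyclins stood in hypoxia. CDK9, the catalytic subunit, was slightly higher in both lines, whereas the cyclin CCNT2 was lower in both, to 0.7784 of the normoxic level in PC3 and 0.7896 in HCT116. Values are CPM on 1 scale for all 14 libraries, and they are relative to the RNA in the library: fewer cells and less RNA per cell cannot be told apart in bulk samples. CDK9 lay at 55.69, 52.70, 52.97 and 56.19 CPM in normoxic PC3 (replicates 1 to 4) and at 59.93, 57.84, 59.25 and 64.47 CPM in hypoxic PC3. Every hypoxic PC3 library was above every normoxic one, with a log2 fold change of 0.16 (standard error 0.06). In HCT116 CDK9 was at 64.90, 64.03 and 63.96 CPM in normoxia and at 66.99, 77.02 and 74.51 CPM in hypoxia. The groups again did not overlap, replicate 1 of hypoxia being closest to normoxia, and the log2 fold change was 0.20 (standard error 0.07).

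CCNT1, the more abundant cyclin T, differed little. Its values in PC3 were 75.52, 81.96, 81.60 and 78.64 CPM in normoxia and 71.17, 74.92, 72.89 and 69.67 CPM in hypoxia. The lowest normoxic library was just above the highest hypoxic one, and the log2 fold change was -0.13 (standard error 0.06). In HCT116 CCNT1 was at 135.4, 153.1 and 140.6 CPM in normoxia and 129.5, 143.7 and 132.6 CPM in hypoxia. These groups overlapped, and the log2 fold change of -0.06 was smaller than its standard error of 0.07. CCNT2, the second cyclin T, was at 34.80, 37.05, 35.77 and 39.16 CPM in normoxic PC3 and at 28.84, 31.02, 31.20 and 22.72 CPM in hypoxic PC3. The groups were apart, with replicate 4 of hypoxia the lowest. The log2 fold change was -0.36 (standard error 0.10) with all 8 libraries and -0.26 without that replicate. In HCT116 CCNT2 had the narrowest group of any member, at 40.44, 40.35 and 40.26 CPM in hypoxia against 49.65, 52.06 and 53.37 CPM in normoxia. Its log2 fold change there was -0.34 (standard error 0.06).

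The inhibitors HEXIM1 and HEXIM2 had higher mean levels in hypoxic HCT116, and in PC3 their groups overlapped. HEXIM1 was at 107.1, 100.8 and 106.3 CPM in normoxic HCT116 and at 136.5, 141.8 and 152.3 CPM in hypoxic HCT116. All 3 hypoxic libraries were above all 3 normoxic ones, with a fold of 1.386 and a log2 fold change of 0.47 (standard error 0.06), higher than 91.7% of all genes tested in that line. In PC3 HEXIM1 was at 125.1, 143.4, 128.7 and 171.4 CPM in normoxia and at 135.5, 149.3, 133.0 and 137.5 CPM in hypoxia. Replicate 4 of normoxia was the highest of the 8 libraries, and all 4 hypoxic libraries lay within the normoxic range. Within the replicate pairs HEXIM1 was higher in hypoxia in replicates 1, 2 and 3 and lower in replicate 4. The log2 fold change was -0.03 (standard error 0.10), and 0.07 without replicate 4 of normoxia, so no direction can be given.

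HEXIM2, the less abundant paralogue, was at 6.325, 6.911 and 7.661 CPM in normoxic HCT116 and at 7.306, 10.37 and 9.246 CPM in hypoxic HCT116. Replicate 1 of hypoxia lay inside the normoxic range, the other two above it, and the log2 fold change was 0.38 (standard error 0.13). Without replicate 2 of hypoxia it was 0.26. In PC3 HEXIM2 was at 8.358, 8.261, 8.716 and 8.880 CPM in normoxia and at 9.566, 8.411, 7.938 and 8.744 CPM in hypoxia. Of the hypoxic libraries, replicate 1 lay above the normoxic range, replicate 3 below it and the others inside it. The log2 fold change was 0.02 (standard error 0.09) and turned to -0.04 without replicate 1 of hypoxia.

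RNA for LARP7 and MEPCE, proteins of the 7SK particle, had log2 fold changes of opposite sign in both lines, although the MEPCE groups overlapped in PC3. LARP7, which binds and stabilises 7SK RNA, was lower in hypoxia, and MEPCE, the methyltransferase that caps 7SK, was higher. LARP7 was at 70.46, 69.51 and 68.32 CPM in normoxic HCT116 and at 57.24, 55.61 and 51.94 CPM in hypoxic HCT116. The groups were well apart, with a fold of 0.8008 and a log2 fold change of -0.32 (standard error 0.06). In PC3 LARP7 was at 27.88, 32.38, 32.12 and 31.31 CPM in normoxia and at 22.68, 23.85, 25.20 and 15.18 CPM in hypoxia. The groups did not overlap, and replicate 4 of hypoxia was the lowest by a wide margin. The log2 fold change was -0.50 (standard error 0.14) with that replicate and -0.36 without it.

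MEPCE was at 81.28, 71.76 and 76.52 CPM in normoxic HCT116 and at 95.42, 88.45 and 101.0 CPM in hypoxic HCT116. Each hypoxic library was above each normoxic one, with a log2 fold change of 0.33 (standard error 0.07). In PC3 MEPCE was at 64.43, 76.77, 72.85 and 71.55 CPM in normoxia and at 70.68, 82.50, 79.09 and 85.65 CPM in hypoxia. The groups overlapped, replicate 1 being the lowest in both conditions, MEPCE was higher in hypoxia in each of the 4 replicate pairs, and the log2 fold change was 0.16 (standard error 0.08). The 7SK RNA itself was not analysed here.

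ZMYND8 had the largest difference of the 8 members in PC3. It was at 57.62, 52.14, 53.86 and 55.98 CPM in normoxia and at 108.7, 95.89, 98.16 and 73.81 CPM in hypoxia. All hypoxic libraries were above all normoxic ones, replicate 4 being the closest to them, with a fold of 1.722 and a log2 fold change of 0.78 (standard error 0.11), higher than 97.7% of all genes tested in PC3. Without replicate 4 of hypoxia the log2 fold change was 0.89. In HCT116 ZMYND8 was at 32.96, 31.56 and 31.67 CPM in normoxia and at 33.89, 39.87 and 43.62 CPM in hypoxia. The groups did not overlap, but replicate 1 of hypoxia was just above the highest normoxic library. The fold was 1.233 and the log2 fold change 0.30 (standard error 0.08), and 0.23 without replicate 3 of hypoxia.

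**Figure D2:**
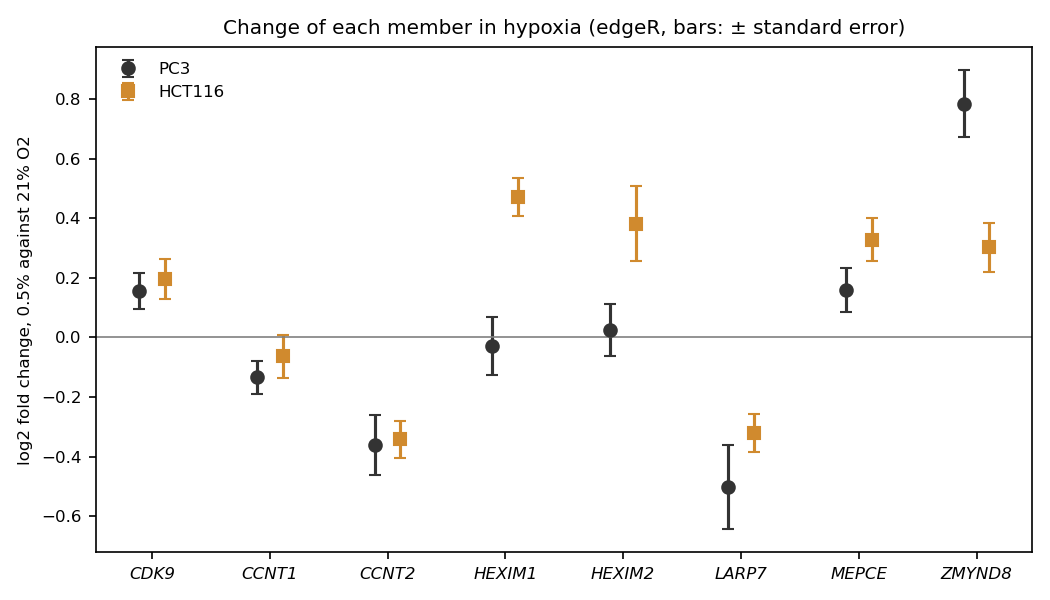
Log2 fold change of each member in hypoxia (0.5% against 21% O2) from the edgeR fit of each line, with bars of 1 standard error. CCNT2 and LARP7 lie below 0 in both lines, CDK9 and ZMYND8 above 0 in both, and HEXIM1 is at -0.03 in PC3 and 0.47 in HCT116.

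In PC3 the edgeR test put 2 of the 8 members past an adjusted p of 0.05 (ZMYND8 higher, CCNT2 lower), when 11.3% of all 14309 genes tested were past it (6.03% higher, 5.29% lower). The PC3 replicate numbers pair the libraries, and with the replicate number as a block 4 members were past it (ZMYND8 and CDK9 higher, CCNT2 and LARP7 lower), with 28.5% of all genes. Unless the block is named, standard errors, adjusted p and calls for PC3 came from the fit without it, which ignores this pairing. Without the block CCNT2 lost its call when any 1 library other than replicate 4 of hypoxia was left out (-0.40 to -0.33), and LARP7 gained one without replicate 3 (-0.57) or replicate 4 (-0.36) of hypoxia. The groups of 5 members did not overlap in PC3, against 20.9% of all genes. In HCT116 7 members were past the threshold (5 higher, 2 lower, all but CCNT1), with 25.9% of all 14120 genes tested (14.6% higher, 11.3% lower), and the groups of 6 members did not overlap, against 42.5% of all genes. The count of members past the threshold fell to 4 when replicate 2 of normoxia, replicate 2 of hypoxia or replicate 3 of hypoxia was left out. Of all genes 2560, 2584 and 2667 were then past it. CDK9 was past it in 3 of 14 alternatives only, and lost its call without any 1 library other than replicate 1 of hypoxia (0.15 to 0.19). HEXIM2 lost its call in 6 of 14, among them without replicate 1 (0.30) or 2 (0.36) of normoxia or replicate 2 (0.26) or 3 (0.37) of hypoxia. ZMYND8 lost its call in 5 of 14, among them without replicate 2 of normoxia (0.28) or replicate 2 (0.29) or 3 (0.23) of hypoxia. Under scaling by total count alone the member count in HCT116 was 4 as well (2 higher, 2 lower), with 4432 of all genes. That scaling moved the median of all genes by -0.09 in HCT116 and -0.10 in PC3 on the log2 scale. The median log2 fold change of the members was 0.00 in PC3 and 0.25 in HCT116, beside 0.00 for all genes in both. Because the members were chosen on these comparisons, nothing is read from the counts or from the calls of single members.

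The difference between the lines in their oxygen response was -0.49 for HEXIM1 (PC3 minus HCT116, log2 scale, standard error 0.13) and 0.49 for ZMYND8 (standard error 0.16). HEXIM2 was at -0.35 (standard error 0.16), and the other 5 members lay between -0.17 and -0.01. The interaction term of edgeR put 0 of the 8 members past an adjusted p of 0.05, beside 359 of all 15493 genes tested (2.32%). With DESeq2 2 members were past it, beside 978 of all genes. At an unadjusted p of 0.05 edgeR had 2 of the 8 members and 2481 of all 15493 genes. Without replicate 4 of hypoxic PC3 the values were -0.49 for HEXIM1 and 0.59 for ZMYND8. There 2 members were past an adjusted p of 0.05, beside 717 of all genes. The count was 1, for HEXIM1 at -0.55, without replicate 1 of normoxic PC3, beside 386 of all genes. It was 1 with the replicate block, for HEXIM1 at -0.48, beside 1307 of all genes. The interaction uses the comparisons on which the members were chosen, so nothing is read from these counts.

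The second question was how the members stood in PC3 against HCT116 at the same oxygen level. The members were chosen with earlier results of these data known, and the libraries are shared. The edgeR p-values between the lines therefore cannot be taken as free of that choice. In normoxia the lines had different stocks: PC3 carried more RNA for ZMYND8 and the HEXIM inhibitors, and HCT116 more for LARP7, both cyclins and CDK9. LARP7 averaged 30.9 ± 2.08 CPM (SD, n = 4) in PC3 and 69.4 ± 1.07 CPM (SD, n = 3) in HCT116, a log2 difference of -1.19 (standard error 0.06, edgeR adjusted p = 6.336e-08). CCNT1 averaged 79.4 ± 3.0 CPM in PC3 and 143.1 ± 9.08 CPM in HCT116, a difference of -0.87 (standard error 0.06, edgeR adjusted p = 4.748e-07). CCNT2 differed by -0.51 (standard error 0.06, edgeR adjusted p = 1.975e-05) and CDK9 by -0.26 (standard error 0.05, edgeR adjusted p = 0.001089). All 4 were therefore lower in PC3, LARP7 by the widest margin.

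ZMYND8 averaged 54.9 ± 2.40 CPM in normoxic PC3 and 32.1 ± 0.779 CPM in normoxic HCT116, a log2 difference of 0.76 (standard error 0.06, edgeR adjusted p = 1.566e-06). HEXIM1 averaged 142.2 ± 21.0 CPM in PC3 and 104.7 ± 3.4 CPM in HCT116, a difference of 0.42 (standard error 0.10, edgeR adjusted p = 0.003041). HEXIM2 differed by 0.28 (standard error 0.09, edgeR adjusted p = 0.01765), a call that was lost without replicate 1 of normoxic HCT116 (0.21) or without replicate 2 (0.27). For MEPCE the difference of -0.12 (standard error 0.07) did not pass (edgeR adjusted p = 0.1294). Thus 7 of the 8 members passed in normoxia, 3 higher and 4 lower in PC3, at a background of 83.4% of all 15206 genes tested (42.9% higher, 40.5% lower).

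In hypoxia 6 of the 8 members passed, 1 higher and 5 lower in PC3, beside 78.7% of all 14890 genes tested (40.6% higher, 38.1% lower). ZMYND8 was further apart than in normoxia, at 94.1 ± 14.7 CPM in PC3 and 39.1 ± 4.91 CPM in HCT116, a log2 difference of 1.27 (standard error 0.14, edgeR adjusted p = 1.343e-05). HEXIM1 stood at 138.8 ± 7.26 CPM in PC3 and 143.5 ± 8.07 CPM in HCT116, a difference of -0.05 (standard error 0.08) that did not pass (edgeR adjusted p = 0.6203). HEXIM2 was at -0.05 as well (standard error 0.14, edgeR adjusted p = 0.7581). Both HEXIM genes were thus higher in PC3 at 21% O2 and did not pass the test between the lines at 0.5% O2. A pass at 21% O2 and a miss at 0.5% O2 is no test of a change. The interaction term put neither gene past the threshold in the main fit.

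LARP7 differed by -1.33 in hypoxia (standard error 0.15, edgeR adjusted p = 1.709e-05), and by -1.22 without replicate 4 of hypoxic PC3. CCNT1 differed by -0.90 (standard error 0.08, edgeR adjusted p = 1.801e-06) and CCNT2 by -0.50 (standard error 0.11, edgeR adjusted p = 0.00204). CDK9 differed by -0.27 (standard error 0.08, edgeR adjusted p = 0.01201), a call lost without replicate 2 of hypoxic HCT116 (-0.23). MEPCE differed by -0.25 (standard error 0.09, edgeR adjusted p = 0.02478), a call lost without replicate 3 of hypoxic PC3 (-0.25), or without replicate 1 (-0.25) or 3 (-0.21) of hypoxic HCT116. Line cannot be told apart here from medium, sequencing run or read length, since the sequencing run was not stated for each library.

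**Figure D3:**
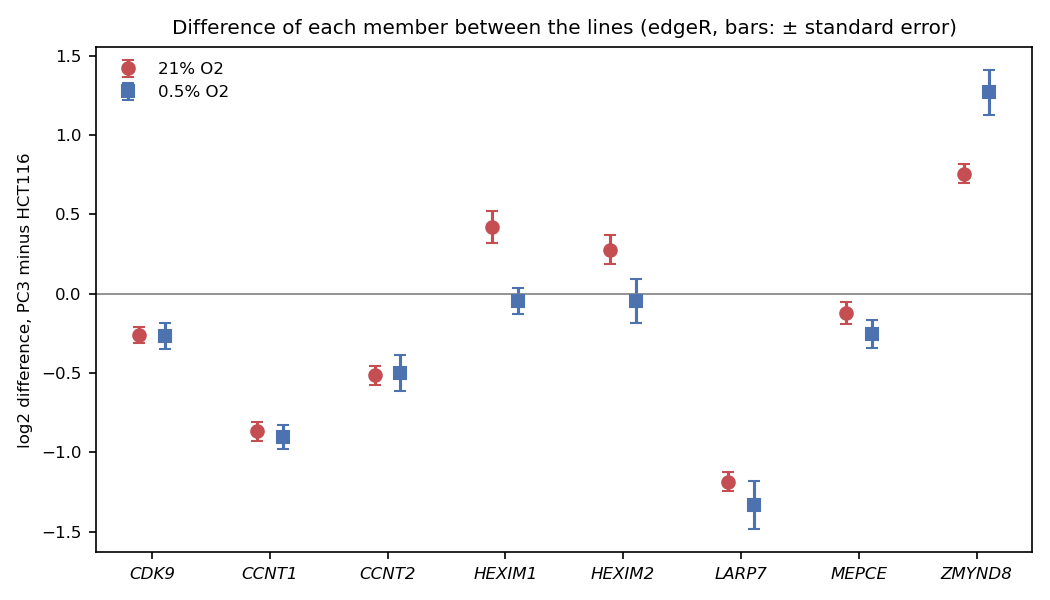
Log2 difference of each member between PC3 and HCT116 at 21% and at 0.5% O2 from edgeR, with bars of 1 standard error. LARP7 is lowest at -1.19 and -1.33, ZMYND8 highest at 0.76 and 1.27, and HEXIM1 goes from 0.42 at 21% O2 to -0.05 at 0.5% O2.

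To compare genes with each other, CPM were divided by the length of all exons of the gene in kilobases. On this scale HEXIM1 was the most abundant member in every group, at 28.9 ± 0.946 CPM per kilobase in normoxic HCT116 and between 38.3 and 39.6 in the other groups. MEPCE (21.2 to 28.2) and CDK9 (18.1 to 24.2) followed. In normoxia MEPCE and CDK9 lay close, at 22.7 ± 1.41 and 21.4 ± 0.174 CPM per kilobase in HCT116, a gap smaller than the SD of MEPCE. CCNT1 came next in HCT116 (19.4 ± 1.23 in normoxia), and in hypoxic PC3 it was passed by ZMYND8, at 9.79 ± 0.307 against 12.35 ± 1.92. CCNT2, HEXIM2 and LARP7 were at 2.68 to 8.58 in all groups. In normoxic PC3 these 3 were at 4.04 ± 0.208, 4.26 ± 0.146 and 3.82 ± 0.257, where HEXIM2 was above LARP7 in every library (4.114 to 4.422 against 3.445 to 4.0) and CCNT2 overlapped with both. The level of LARP7 depends most on the length used, since its exons add up to 8094 bases and its longest transcript to 3204. With the longest transcript as length (1528 bases for HEXIM2), LARP7 would lie above HEXIM2 in normoxic PC3. It would also lie near CCNT1 in normoxic HCT116, so the place of LARP7 in this order is not firm.

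HEXIM1 made up nearly all of the HEXIM RNA in both lines and at both oxygen levels. Its share of HEXIM1 plus HEXIM2, per kilobase, was 90.1 ± 1.12% and 89.9 ± 0.890% in normoxic and hypoxic PC3, and 89.3 ± 0.973% and 89.9 ± 1.44% in HCT116, all within 1 SD of each other. The share of CCNT1 in the cyclin T RNA was higher in hypoxia in both lines, at 72.7 ± 1.085% in normoxic and 75.85 ± 2.19% in hypoxic PC3. In HCT116 it went from 77.3 ± 0.982% to 80.5 ± 0.859%, and the libraries of the oxygen levels did not overlap in either line (71.2 to 73.8% against 74.2 to 79.1%, and 76.45 to 78.4% against 79.8 to 81.4%).

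The summed cyclin T RNA per CDK9 RNA was lower in hypoxia in both lines. In PC3 the ratio was 0.8197 ± 0.0489 in normoxia and 0.6455 ± 0.0641 in hypoxia. In HCT116 it was 1.17 ± 0.0701 in normoxia and 0.942 ± 0.0424 in hypoxia. The highest hypoxic library was below the lowest normoxic one in each line, at 0.7055 against 0.7596 in PC3 and 0.9879 against 1.10 in HCT116. The HEXIM RNA per CDK9 RNA did not separate in PC3, at 2.40 ± 0.294 and 2.13 ± 0.165, and was higher in hypoxic HCT116, at 1.82 ± 0.0812 against 1.51 ± 0.0452. The HEXIM RNA per cyclin T RNA stood at 1.29 ± 0.101 in normoxic and 1.935 ± 0.126 in hypoxic HCT116, with every hypoxic library (from 1.85) above every normoxic one (up to 1.37). In PC3 this ratio was 2.93 ± 0.358 and 3.30 ± 0.2005. The PC3 libraries of the oxygen levels overlapped, but the ratio was higher in hypoxia in each of the 4 replicate pairs (2.747 to 3.284, 2.873 to 3.341, 2.655 to 3.05 and 3.451 to 3.537). Every PC3 library (from 2.655) was above every HCT116 library (up to 2.08). These are ratios of RNA and not of protein, and they follow from the same values as the comparisons above.

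**Figure D4:**
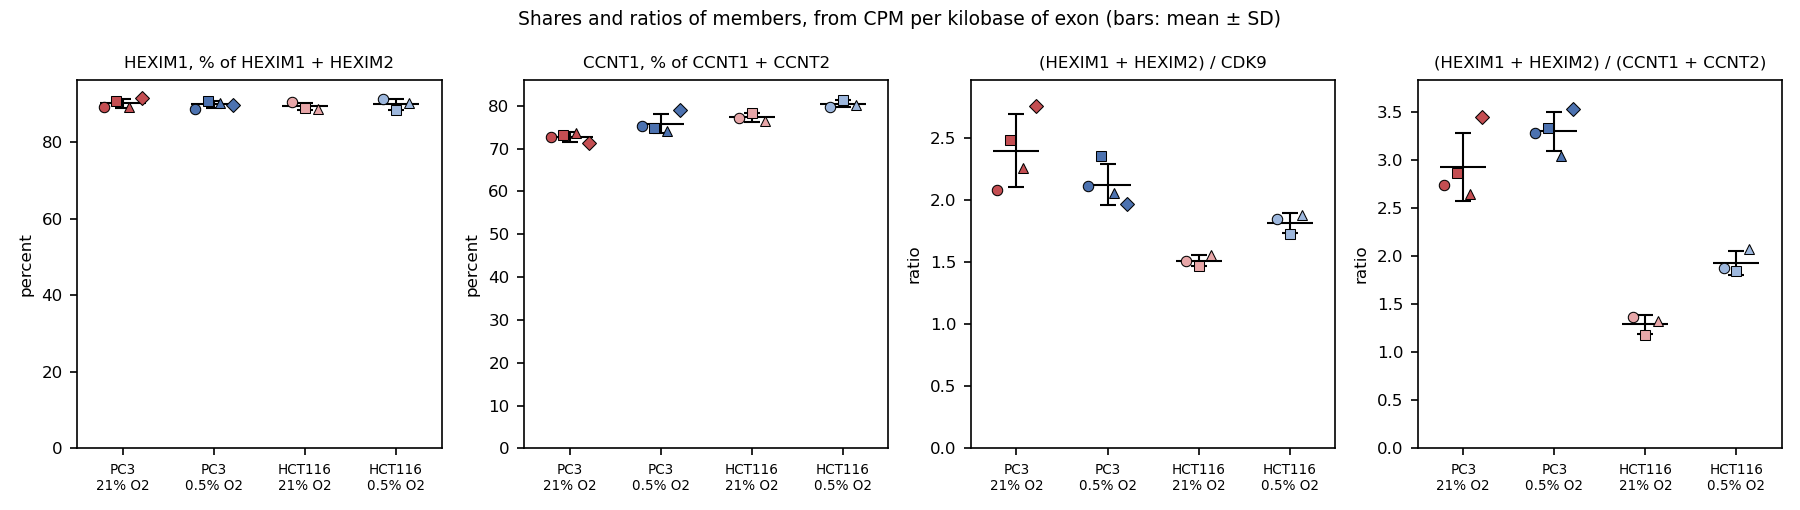
Share of HEXIM1 in HEXIM RNA, share of CCNT1 in cyclin T RNA, and ratios of HEXIM RNA to CDK9 and to cyclin T RNA, per library from CPM per kilobase of exon, with mean and SD as bars. The HEXIM1 share is 88.3 to 91.45% in all libraries, and the HEXIM to cyclin T ratio is 1.18 to 1.37 in normoxic and 1.85 to 2.08 in hypoxic HCT116.

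The genes with the pattern most like HEXIM1 were ranked by Pearson's r of log2 CPM over the 14 libraries, each gene centred on its mean in each line, among 11198 genes. They were RHOV (r = 0.94), RCBTB2 (0.92), NR4A1 (0.91), SGSM2 (0.89) and ACACB (0.89). As for HEXIM1, their log2 fold changes in hypoxia were near 0 in PC3 (-0.05 to 0.09) and above 0 in HCT116 (0.30 to 0.52). For ZMYND8 the closest were PALLD (r = 0.97), SEC14L1 (0.95), ZKSCAN2 (0.95), TMEM184A (0.95) and MADD (0.95). Their log2 fold changes were 0.33 to 0.57 in PC3 and 0.07 to 0.39 in HCT116, each larger in PC3 as for ZMYND8. The libraries are shared by all these genes, and the highest of many correlations are high by selection.

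The last question was whether other genes of the elongation pathway moved with oxygen. In 11 lists by role, 104 genes were in the count files and 103 were tested. The lists were drawn up with earlier results of these data known. The edgeR p-values of their genes below cannot be taken as free of that knowledge. NELFE, a NELF subunit, was listed at 0 in all 14 libraries, which may come from the counting and does not show that it was not expressed. In PC3 10 of the 103 passed (9 higher, 1 lower), that is 9.71% beside 11.3% of all genes, with a median log2 fold change of 0.02. Upper-quartile scaling gave 6 higher and 4 lower, total-count scaling 5 higher and 16 lower, and the replicate block 15 higher and 14 lower. The count in PC3 also hung on single libraries: 20 genes passed without replicate 4 of hypoxia, and 3 without replicate 2 or without replicate 3 of normoxia, 5 without replicate 4 of normoxia and 5 without replicate 2 of hypoxia. In HCT116 28 passed (18 higher, 10 lower), that is 27.2% beside 25.9% of all genes, with a median of -0.02. Total-count scaling turned this balance, to 9 higher and 23 lower. Without replicate 2 of normoxia this was 17, and without replicate 2 or 3 of hypoxia 18. The share past the threshold was close to that of all genes in both lines.

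Of these genes 6 passed in both lines, 5 higher and 1 lower in both, where 3.34% of all genes were higher and 2.02% lower in both. JMJD6, an oxygen-dependent dioxygenase described as a factor that helps to free P-TEFb from 7SK, rose by 0.42 in PC3 (standard error 0.07, edgeR adjusted p = 0.006001) and by 0.40 in HCT116 (standard error 0.06, edgeR adjusted p = 0.001507). Its mean went from 44.45 ± 2.53 to 59.3 ± 4.25 CPM in PC3 and from 70.7 ± 3.82 to 91.95 ± 1.88 CPM in HCT116. CTDP1, the phosphatase FCP1 that removes phosphate from the polymerase CTD, rose by 0.41 in PC3 (edgeR adjusted p = 0.002813) and 0.51 in HCT116 (edgeR adjusted p = 0.001651). JMJD6 and CTDP1 passed in both lines under every alternative run. Of the CTD phosphatases 3 of 6 passed in PC3 (2 higher, 1 lower) and 4 of 6 in HCT116 (3 higher, 1 lower). Of all genes tested 11.3% passed in PC3 and 25.9% in HCT116, and with 6 genes nothing is read from these counts. The gene that fell in each line was RPAP2, a CTD phosphatase, at -0.34 in PC3 (edgeR adjusted p = 0.03304) and -0.29 in HCT116 (edgeR adjusted p = 0.03158). Its call was lost in PC3 without replicate 2, 3 or 4 of normoxia or replicate 1 or 2 of hypoxia (-0.36 to -0.30) and in HCT116 without replicate 3 of normoxia (-0.24), replicate 2 of hypoxia (-0.30) or replicate 3 of hypoxia (-0.21).

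MLLT3, the AF9 subunit of the super elongation complex through which P-TEFb is recruited, rose by 0.54 in PC3 (standard error 0.11, edgeR adjusted p = 0.01349) and by 0.51 in HCT116 (standard error 0.15, edgeR adjusted p = 0.02492). The call was lost without replicate 2 (0.53) or 3 (0.51) of normoxic PC3, and in HCT116 without replicate 1 of normoxia (0.38), replicate 1 of hypoxia (0.51) or replicate 2 of hypoxia (0.42). Of the 9 genes of this complex 2 passed in PC3 (both higher) and 4 in HCT116 (3 higher, 1 lower). These are 22.2% and 44.4%, beside 11.3% and 25.9% of all genes, and with 9 genes nothing is read from them. ELL3, an ELL-family elongation factor, fell by 0.51 on the log2 scale in HCT116 (standard error 0.09, edgeR adjusted p = 0.002459), from 12.8 ± 0.363 to 8.85 ± 0.919 CPM. In PC3 it was at 23.6 ± 1.85 and 23.5 ± 1.68 CPM. ELL3 was the 1 list gene of 103 (0.971%) past the threshold in the interaction test, beside 2.32% of all genes tested. Its value was 0.53 (standard error 0.13, edgeR adjusted p = 0.04133). This call was close to the threshold and was not run under the alternatives.

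CDK19, a Mediator kinase, rose by 0.45 in PC3 (standard error 0.10, edgeR adjusted p = 0.01979) and by 0.46 in HCT116 (standard error 0.09, edgeR adjusted p = 0.004648), the PC3 call being lost without replicate 2 (0.43) or 3 (0.41) of normoxia or replicate 2 of hypoxia (0.47). POLR2H, a subunit shared by the nuclear RNA polymerases, rose by 0.41 in PC3 (edgeR adjusted p = 0.03045) and 0.35 in HCT116 (edgeR adjusted p = 0.02966). The POLR2H call was lost in PC3 without any 1 library other than replicates 1 and 4 of hypoxia (0.37 to 0.44), and in HCT116 without replicate 1 or 2 of normoxia or replicate 1 or 3 of hypoxia (0.27 to 0.38). Among the ZMYND8 partners and its paralogue, 2 of 18 passed in PC3 (both higher) and 4 of 18 in HCT116 (3 higher, 1 lower). These shares of 11.1% and 22.2% were near those of all genes, at 11.3% and 25.9%. KDM1A, a histone demethylase, had the largest change of this list in PC3, at 0.41 (standard error 0.11, edgeR adjusted p = 0.0412), but lost its call without any 1 library other than replicate 1 of hypoxia (0.33 to 0.44). In HCT116 it was at -0.07 (edgeR adjusted p = 0.4283). MBD3, a subunit of the NuRD complex, had the largest in HCT116, at 0.47 (standard error 0.08, edgeR adjusted p = 0.002515).

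The following genes had the largest change of their lists in HCT116. BRD3, a BET bromodomain protein, rose by 0.25 (standard error 0.07, edgeR adjusted p = 0.02077), and NELFB, a NELF subunit, rose by 0.23 (standard error 0.07, edgeR adjusted p = 0.03406). GTF2F2, the small subunit of TFIIF, fell by 0.39 on the log2 scale (standard error 0.07, edgeR adjusted p = 0.00205), and INTS12 of the Integrator complex fell by 0.39 (standard error 0.08, edgeR adjusted p = 0.003918). CTR9, a PAF1 complex subunit, was at -0.24 (standard error 0.07, edgeR adjusted p = 0.02571). The calls of ELL3, GTF2F2, INTS12, MBD3 and CDK19 in HCT116 held under every alternative run, but those of BRD3, NELFB and CTR9 did not. BRD3 lost its call without replicate 1 or 3 of normoxia or replicate 2 or 3 of hypoxia (0.20 to 0.24), NELFB without replicate 2 or 3 of either condition (0.18 to 0.24), and CTR9 without replicate 1 or 2 of normoxia or replicate 2 of hypoxia (-0.24 to -0.18). Differences between the lines were not shown for these genes, since passing a threshold in 1 line and missing it in the other is no test of the difference.

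**Figure D5:**
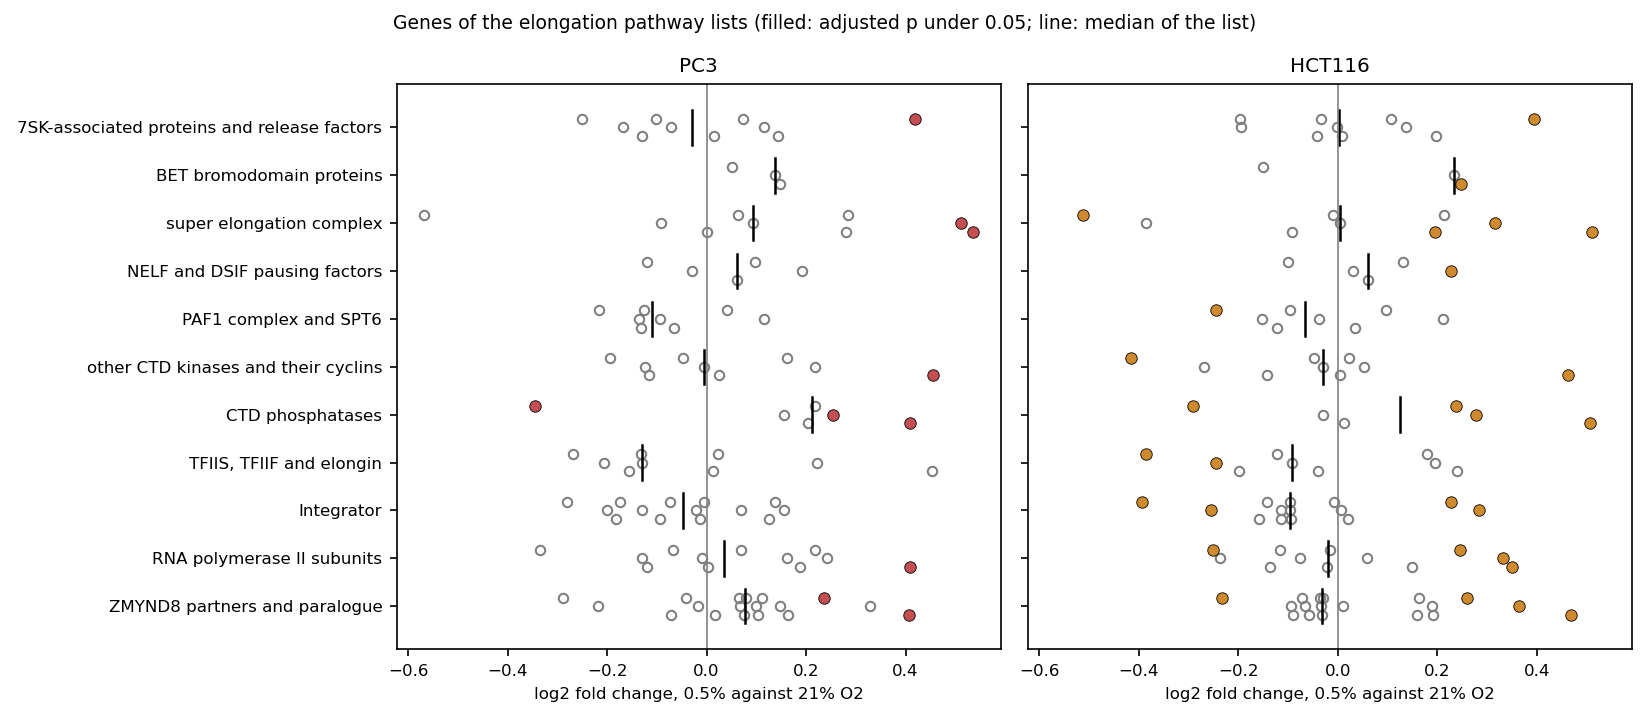
Log2 fold change in hypoxia of each tested gene of the 11 elongation pathway lists, in PC3 and HCT116, filled where the edgeR adjusted p is under 0.05, with the median of each list as a vertical line. The list medians lie between -0.13 and 0.21 in PC3 and between -0.10 and 0.23 in HCT116, and 10 genes are filled in PC3 and 28 in HCT116.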

How the data were processed

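Polyadenylated RNA from PC3 (4 normoxic and 4 hypoxic samples) and HCT116 cells (3 and 3), described as biological replicates, was sequenced as paired-end reads. Per the study's methods and the submitters' processing notes, the authors aligned reads to GRCh37 with HISAT2 (2.05) after removing spike-in reads, and counted reads per RefSeq gene with HTSeq (0.5.4p3, intersection-strict). The RefSeq release, the strand setting and the run of each library are not given in the sources used here. The deposited values are raw counts per gene symbol, 1 file per sample. The spike-in reads were not used here, so levels are relative to the library.

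The members and lists were chosen with earlier results of these data known. Genes were filtered with filterByExpr, scaled with TMM and tested with the edgeR (4.0.16, in R 4.3.3) quasi-likelihood test, two-sided, with Benjamini-Hochberg adjustment over all genes tested and a threshold of 0.05. The fits compared hypoxia with normoxia within each line, the lines within each oxygen level, and the responses in an interaction term over all 14 libraries. These main fits held no replicate block. Standard errors came from the fold change and its F statistic. Printed CPM share 1 TMM scaling over 14 libraries. The scripts were tested on simulated counts. Alternatives were 3 other scalings, other filters, DESeq2 (1.42.0), a replicate block, 1 fit over all libraries, another gene length, and leaving out each library.

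PC3 libraries with the same replicate number deviated together from their group means (r = 0.14 to 0.68 for the same number, -0.42 to 0.20 for others), so the numbers pair them, although the labels do not say what a number marks. Replicates differed by more than sampling noise (chi-square per gene 12.1 to 257). Genes were placed with GENCODE models on GRCh37, which matched 20098 of 23106 symbols (87.0%). Named genes were all members, list genes past the threshold in both lines, the largest change past it in each list and line (mean level in that line 1 CPM or more), and the 5 genes most like HEXIM1 and ZMYND8. Some marker genes of the lists are not reported here.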

Additional observations from a re-analysis of the deposited data

Results flagged for a closer look

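The response of ELL3, an ELL-family elongation factor, to hypoxia differed between the lines by the interaction test of edgeR, by 0.526 on the log2 scale (PC3 minus HCT116, standard error 0.13, adjusted p = 0.04133). This call was close to the threshold and was not run under the alternatives. Replicate 1 of normoxic PC3 had 144.7 CPM for KDM1A, far below the other libraries of its group (182.3 to 188.2 CPM). Its pair, replicate 1 of hypoxia, was the lowest of the hypoxic group too, at 189.4 CPM. The log2 fold change of KDM1A in PC3 was 0.33 without the normoxic library and 0.48 without the hypoxic one. Leaving out 1 PC3 library breaks its pair, so such values do not show that the library was aberrant. Replicate 4 of hypoxic PC3 had 26.5 CPM for BRD3, below the other three libraries (28.66 to 29.0 CPM), and without it the log2 fold change of BRD3 in PC3 was 0.17. Of 58 groups of 4 libraries tested for a value far from the rest, 2 had one, when chance gives about 1 in 20 groups, that is 2.9.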

How the results depend on the processing

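Of the members' values under each alternative, 123 of 128 kept their direction in PC3, 112 of 112 in HCT116, 112 of 112 between the lines in normoxia, 109 of 112 between the lines in hypoxia and 162 of 168 in the interaction. The cause of each change below was not tested. Members past the threshold in PC3 numbered 4 with total-count scaling (1 higher, 3 lower), 1 with no filter and 4 with the replicate block. In HCT116 they numbered 4 with total-count scaling and 3 in 1 fit over all libraries, and in the interaction 1 with upper-quartile scaling, 2 with DESeq2 and 1 with the replicate block.

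All genes past the threshold in PC3 (1620) became 2568 with DESeq2, 4074 with the replicate block and 2465 in 1 fit over all libraries, in HCT116 (3658) 1733 in 1 fit, and in the interaction (359) 978 with DESeq2 and 1307 with the block. Upper-quartile scaling split the PC3 calls into 681 higher and 1048 lower. Total-count scaling gave 562 higher and 1733 lower in PC3, and in HCT116 1286 higher and 3146 lower, where TMM gave 2061 and 1597. Upper-quartile scaling gave 115 higher and 278 lower in the interaction (TMM 156 and 203), and 1 higher and 2 lower among the PC3 members. Pathway genes past it in PC3 (10) became 21 with total-count scaling, 17 with DESeq2, 29 with the block and 19 in 1 fit, and in HCT116 (28) 16 in 1 fit. HCT116 libraries with the same number correlated at 0.04 to 0.14 in their deviations, and those with other numbers at -0.095 to 0.001. Every library correlated best with its own number, so a pairing by number was present but weak. There the block changed the call of 1 member, CDK9.

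Leaving out 1 library at a time gave 1 to 3 members, 553 to 2085 genes and 3 to 20 pathway genes in PC3, and 4 to 7, 2560 to 3339 and 17 to 24 in HCT116. It gave 6 to 7 members and 12212 to 12879 genes between the lines in normoxia, 5 to 6 and 11062 to 12219 in hypoxia, and 0 to 2 members and 177 to 717 genes in the interaction.

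Values near 0 changed sign. In PC3 ELL3 went to -0.0417 with upper-quartile scaling, -0.102 with total counts, -0.00202 with at least 10 counts in every library, -0.00342 in 1 fit over all libraries and -0.0275 to 0.0510 without 1 library. HEXIM2 in PC3 went to -0.0195 with upper-quartile scaling, -0.0813 with total counts and -0.0353 to 0.0762 without 1 library, and HEXIM1 ranged from -0.0775 to 0.0680 without 1 library. Between the lines in hypoxia HEXIM1 went to 0.00584 and HEXIM2 to 0.00439 with total counts, and HEXIM2 ranged from -0.180 to 0.0665 without 1 library. In the interaction CCNT2 went to 0.00373 with median-of-ratios scaling, 0.00406 with DESeq2 and -0.0572 to 0.0802 without 1 library, and CDK9 ranged from -0.0796 to 0.0171 without 1 library.

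With the longest transcript as gene length the HEXIM1 share was 87.4% and 87.1% in normoxic and hypoxic PC3 and 86.4% and 87.1% in HCT116, and the CCNT1 share 68.4%, 71.8%, 73.4% and 77.0%. HEXIM RNA per CDK9 was 2.045, 1.81, 1.29 and 1.55. Cyclin T RNA per CDK9 was 0.7675 in normoxic PC3, and 1.09 and 0.867 in HCT116, and HEXIM per cyclin T RNA was 3.03 in hypoxic PC3 and 1.19 and 1.79 in HCT116.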
